A study of Homo sapiens with 16 samples.

Results

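Gene expression after knockdown of UXT in cells exposed to tumour necrosis factor (TNF) was read from a single pair of poly(A) RNA libraries of HCT116, a long-established cell line from a human colorectal carcinoma. The library labelled siUXT TNF came from cells transfected with small interfering RNA (siRNA) against UXT and treated with TNF. Its control, labelled NC TNF, came from cells that received the preparation labelled NC and TNF. Both groups therefore share the cell line and the TNF treatment, and each is 1 library. The sequence and number of the siRNAs, the dose and time of TNF and what NC stands for were not stated in the labels. A further 4 RNA libraries (NC PBS, siEZH1 PBS, siEZH1 TNF and siUXT PBS) were used as values set beside the comparison: PBS is phosphate-buffered saline, and siEZH1 is siRNA against the histone methyltransferase gene EZH1. The series holds 16 samples, of which 10 are chromatin samples that were not analysed here. Levels are in FPKM, a unit that divides the fragments of a gene by its transcript length and by the size of the library. Gene symbols that share the same 6 values count as 1 locus, and the comparison takes every locus whose mean over its 2 libraries reached 1 FPKM, which are 11790 of the 17642 loci above 0 in any library. Of these, 10006 carry a single protein-coding symbol and are called genes below. The values used are log2(FPKM + 1), and a difference is siUXT TNF minus NC TNF on that scale, which understates the change of genes with low FPKM. With 1 library a side there is no replicate and no test, so no p-value is given and a gene is said to be higher or lower only in these libraries. Folds named as 1.5-fold or 2-fold are on the same FPKM + 1 scale.

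UXT encodes a small protein of the prefoldin family that works with the scaffold protein URI in a prefoldin-like complex, which joins the R2TP chaperone in assembling RNA polymerases and other large machines. UXT has also been described in the nucleus, as a cofactor of NF-kB and of nuclear receptors. TNF acts through its receptor and the IKK kinases to free NF-kB from its IkB inhibitors, and NF-kB then switches on chemokines, survival genes and its own inhibitors. The series title places UXT and the EZH1/SUZ12 complex in the transcription of NF-kB target genes, and the comparison asks how those and all other genes differ when UXT is lowered in TNF-treated cells.

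UXT was lower in the siUXT library. Its level was 59.6 FPKM in NC TNF and 24.6 in siUXT TNF, 0.412 of the control, and its log2 difference of -1.24 was the lowest among genes whose mean reached 10 FPKM. Outside the compared pair, UXT was at 62.2 FPKM in NC PBS, 64.9 in siEZH1 PBS, 77.1 in siEZH1 TNF and 27.7 in siUXT PBS. Both siUXT libraries thus lay below all 4 others. The partners of UXT differed little. URI1, the scaffold of the prefoldin-like complex, was at 10.4 FPKM in NC TNF and 14.1 in siUXT TNF (log2 difference 0.41). RUVBL1 and RUVBL2, the ATPases of R2TP, had differences of 0.17 and -0.09, and PIH1D1 and RPAP3, its adaptors, of 0.11 and 0.12. PDRG1, another subunit of the UXT complex, had a difference of -0.21, and POLR2E, the RNA polymerase subunit bound by URI, of -0.28. The lowest partner was TELO2, a cochaperone of large kinases, at 23.7 and 16.5 FPKM (-0.50), while its companions TTI1 and TTI2 stood at -0.09 and 0.09. WDR92, linked to R2TP, had a difference of 0.16. Of the 13 loci of this list that were compared, UXT was the 1 that was at least 1.5-fold apart. The 5 prefoldin loci compared had a median of 0.30, with VBP1 at 0.44, PFDN5 at 0.39, PFDN4 at 0.30, PFDN2, which prefoldin and the UXT complex share, at 0.14 and the PFDN1 locus at -0.15; PFDN6 was listed at 0.

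The libraries differed in depth, and one stood apart. Steps among low values put NC TNF at 0.719 of the depth of NC PBS and siUXT TNF at 0.958, so the control was read less deeply than the knockdown. The siUXT PBS library stood apart: against NC PBS, 665 of the 10006 genes were at least 2-fold lower in it (6.65%) and 21 at least 2-fold higher (0.21%). Colon epithelial markers were present in part. Of 8 colon epithelial markers, 6 were compared, none was 1.5-fold apart, and their summed level was 2293 FPKM in NC TNF and 2178 in siUXT TNF, but VIL1 was at or near 0 and CEACAM5 was listed at 0. Of 17 markers of other cell types, 3 were compared (CD68, the COL1A1 locus and ACTA2), their sum over the list was 12.8 and 13.1 FPKM in NC TNF and siUXT TNF and lay between 8.85 and 15.7 in the 6 libraries, and the leukocyte markers PTPRC, CD3E and CD14 were at 0. Of those compared, CD68 was at 2.52 and 1.14 FPKM (-0.72), COL1A1 had a difference of 0.08 and ACTA2 of 0.49.

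Most genes were close to their control value, and few stood far from it. Over all 11790 loci the median difference was 0.01, 52% were higher (log2 difference above 0), 93.7% were within 1.5-fold, and 58 (0.492%) and 45 (0.382%) were at least 2-fold higher and lower. Of the 10006 genes, 30 were at least 2-fold higher (0.3%) and 14 at least 2-fold lower (0.14%), and 270 (2.7%) and 263 (2.63%) were at least 1.5-fold higher and lower. Since no replicate gives the error of a difference, the range that holds the central 95% of genes of like level serves as a yardstick. It ran from -0.61 to 0.79 for the 845 genes with a mean of 1 to 2 FPKM, from -0.60 to 0.57 for the 3013 genes with 10 to 30 FPKM, and from -0.58 to 0.51 for the 604 genes with 100 FPKM or more. Of the 30 genes at least 2-fold higher, 22 had a mean under 5 FPKM (10 of them under 2 FPKM), against 6 of the 14 lower ones. At the lower limit, TRAF1, with a mean of 1.00 FPKM (1.39 and 0.608), was the member just inside and PNPLA5 (1.21 and 0.788 FPKM) the first outside.

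**Figure D1:**
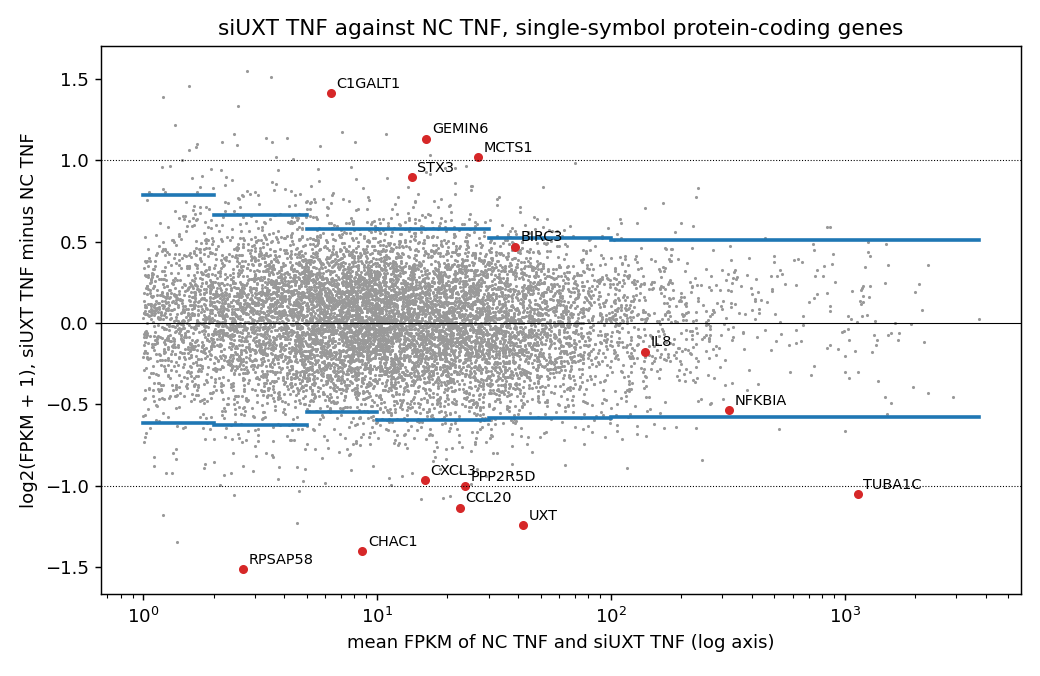
Each point is 1 of the protein-coding genes, with its mean FPKM in NC TNF and siUXT TNF on a log axis and its log2(FPKM + 1) difference; 4 genes listed at 0 in NC TNF are left out. Blue lines hold the central 95% of genes in each range of level, dotted lines mark 2-fold, and UXT lies below both at -1.24 while IL8 (-0.18) lies inside.

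NF-kB target genes were lower as a list. Of its 67 members 47 loci were compared, 32 were lower and 15 higher, 11 were at least 1.5-fold lower and 0 at least 1.5-fold higher, and the median difference was -0.27. Over all loci the median was 0.01, 48% were lower, 3.11% at least 1.5-fold lower and 3.15% at least 1.5-fold higher. The summed FPKM of the list was 3219 in NC TNF, 2508 in siUXT TNF and 2440 in siEZH1 TNF, against 588 to 717 in the PBS libraries. Of the roles with several genes, chemokines had the lowest median (-0.60), followed by other cytokines (-0.44), and survival genes had the highest (0.05).

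All 5 chemokine genes compared were lower. CCL20, which attracts CCR6-bearing lymphocytes and dendritic cells, was at 31.6 FPKM in NC TNF and 13.8 in siUXT TNF (-1.14), with 19.8 in siEZH1 TNF, 0.165 in siEZH1 PBS and a listed 0 in NC PBS and siUXT PBS. CXCL3, a neutrophil chemokine, was at 21.5 FPKM in NC TNF and 10.5 in siUXT TNF (-0.97), against 20.5 in siEZH1 TNF and at most 0.478 in the PBS libraries. Both siUXT TNF values were the lowest of the 3 TNF libraries. Its neighbour CXCL2 was at 26.4 and 17.1 FPKM (-0.60), with 19.1 in siEZH1 TNF. CXCL1 was at 95.6 and 73.4 FPKM (-0.38), with 82.6 in siEZH1 TNF. The most abundant, IL8 (now CXCL8), was at 149 and 132 FPKM (-0.18), and at 96.5 in siEZH1 TNF. IL8, CXCL1 and CXCL2 were inside the central 95% range for their level, CXCL2 just so, and CCL20 and CXCL3 were below it. The chemokines thus ran from a ratio of 0.438 for CCL20 to 0.883 for IL8.

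Promoters of 4 of these chemokine genes are printed to show the sequence that NF-kB is known to bind there. The motif searched was GGGA, then any 4 bases, then CC, on both strands. It was found in 24 of 36 promoters of compared NF-kB targets that the sequence table holds (66.7%). The share was 31.9% of 8227 promoters of genes compared and 25.1% of all 27305 promoters in the table. The list was chosen as NF-kB targets, so its share describes the list and is no result of the comparison. A match is a string of letters and does not show binding. Each sequence is the RefSeq promoter (GRCh38.p14, 250 bases before to 50 after the start of the gene), 5′ to 3′ on the gene's strand, with matches to the motif in capitals, and matches on opposite strands can overlap.
CCL20, chr2:227813592-227813891, plus strand: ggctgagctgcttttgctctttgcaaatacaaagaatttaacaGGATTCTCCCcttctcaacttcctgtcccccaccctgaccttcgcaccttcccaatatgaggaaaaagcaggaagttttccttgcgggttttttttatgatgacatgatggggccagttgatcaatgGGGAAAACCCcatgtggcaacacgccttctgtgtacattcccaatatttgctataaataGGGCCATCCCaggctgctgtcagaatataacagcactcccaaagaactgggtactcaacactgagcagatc
CXCL3, chr4:74038640-74038939, minus strand: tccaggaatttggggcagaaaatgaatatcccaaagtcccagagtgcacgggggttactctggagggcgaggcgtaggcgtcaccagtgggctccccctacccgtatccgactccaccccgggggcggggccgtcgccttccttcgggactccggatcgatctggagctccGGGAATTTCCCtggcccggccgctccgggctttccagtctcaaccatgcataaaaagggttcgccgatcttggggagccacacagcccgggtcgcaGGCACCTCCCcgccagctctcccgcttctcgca
CXCL2, chr4:74099146-74099445, minus strand: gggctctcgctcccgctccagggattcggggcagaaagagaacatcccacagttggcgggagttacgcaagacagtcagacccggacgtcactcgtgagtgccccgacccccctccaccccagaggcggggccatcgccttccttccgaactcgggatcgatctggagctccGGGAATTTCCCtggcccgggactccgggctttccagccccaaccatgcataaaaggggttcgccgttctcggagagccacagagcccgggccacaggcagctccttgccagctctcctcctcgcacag
CXCL1, chr4:73869143-73869442, plus strand: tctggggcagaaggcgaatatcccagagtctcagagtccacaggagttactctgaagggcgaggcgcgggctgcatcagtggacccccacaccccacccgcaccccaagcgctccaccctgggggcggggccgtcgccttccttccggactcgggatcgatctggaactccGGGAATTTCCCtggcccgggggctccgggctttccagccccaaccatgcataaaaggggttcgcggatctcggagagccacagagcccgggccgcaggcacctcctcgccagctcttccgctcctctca
The CXCL1, CXCL2 and CXCL3 promoters share the run GGGAATTTCCC, a match on both strands, although their differences ran from -0.38 to -0.97. The CCL20 promoter has 3 matches, among them GGGAAAACCC. Targets with and without a match were found among both higher and lower genes: BIRC3 (0.47) had none, but BIRC2 (0.30) and REL (0.24) each had 2, and NUAK2 (-0.90) had none.

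Among other secreted and surface products, CSF2, the growth factor GM-CSF, was at 4.16 FPKM in NC TNF and 1.93 in siUXT TNF (-0.82), with 3.15 in siEZH1 TNF. EBI3, a cytokine subunit, was at 3.35 and 1.5 FPKM (-0.80), with 1.34 in siEZH1 TNF, and CSF1, the macrophage growth factor, at 17.6 and 11.7 (-0.55). IL32 was the 1 cytokine of 6 that was not lower, at 5.24 and 5.33 FPKM. ICAM1, a leukocyte adhesion molecule, was at 46.5 FPKM in NC TNF, 30.1 in siUXT TNF and 25.5 in siEZH1 TNF (-0.61 for siUXT). The urokinase gene PLAU stood at -0.29, the syndecan SDC4 at -0.41, and the hyaluronan receptor CD44, with 102 FPKM in NC TNF against 111 in NC PBS, at 0.26.

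Of the IkB proteins and other NF-kB regulators named here, most had lower values in siUXT TNF. NFKBIA, which encodes IkB-alpha, was at 379 FPKM in NC TNF and 261 in siUXT TNF (-0.54), with 309 in siEZH1 TNF. BCL3, an atypical IkB protein, was at 38.1 and 22.9 FPKM (-0.71), and NFKBIE at 33.2 and 26.0 (-0.34). TNFAIP3, the ubiquitin-editing brake A20, was at 37.0 and 28.9 FPKM (-0.34), with 35.8 in siEZH1 TNF. ZC3H12A, a nuclease that degrades cytokine mRNA, was at 16.8 and 9.63 FPKM (-0.74). In contrast, TNIP1, a partner of A20, was higher at 36.7 and 45.7 (0.31), and CYLD stood at 0.22. The NF-kB subunit genes were split. NFKB1 was at 37.5 and 39.2 FPKM (0.06), NFKB2 at 130 and 146 (0.16), RELA at 46.9 and 42.7 (-0.13) and RELB at 56.9 and 47.2 (-0.27). IRF1, an interferon regulatory factor, was at 92.8 and 58.7 FPKM (-0.65), with 61.6 in siEZH1 TNF. NUAK2, a stress kinase, was at 24.4 and 12.6 FPKM (-0.90), and the TNFAIP2 locus at 605 and 324 (-0.90), with 13.7 and 366 FPKM in siEZH1 TNF.

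BIRC3 and BIRC2, inhibitors of apoptosis that also act in TNF receptor signalling, were higher. BIRC3 was at 32.6 FPKM in NC TNF, 45.5 in siUXT TNF and 36.7 in siEZH1 TNF (0.47 for siUXT), the highest of the 3 TNF libraries and the highest difference on the list. BIRC2 was at 29.7 and 36.8 FPKM (0.30). The BIRC3 and BIRC2 differences were both inside the central 95% range for their level, -0.58 to 0.52 for genes with 30 to 100 FPKM. SOD2, CFLAR and BCL2L1 lay between -0.17 and 0.05, so the 5 survival genes had a median of 0.05. The 27 compared genes of the pathway between the TNF receptor and NF-kB had a median of 0.04, with 17 higher and 10 lower and 1 at least 1.5-fold lower. In siEZH1 TNF, which is set against the same NC TNF library, the median of the NF-kB target list was -0.32. EZH1 itself was at 5.12 FPKM in NC TNF and 4.14 in siEZH1 TNF (-0.25), and at 5.45 in NC PBS and 4.05 in siEZH1 PBS. Between siUXT TNF and siEZH1 TNF directly, the median of the NF-kB target list was 0.03. Because both knockdowns are set against 1 NC TNF library, a high value of that library and a low value in each knockdown cannot be told apart.

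**Figure D2:**
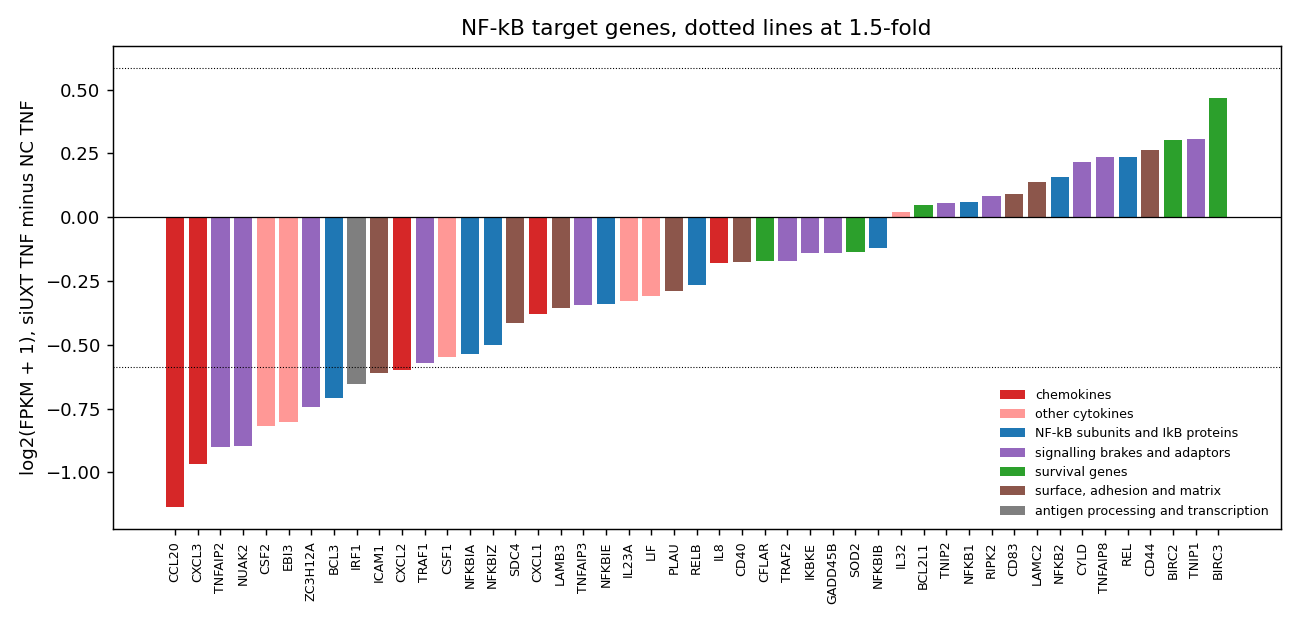
Bars give the log2(FPKM + 1) difference of siUXT TNF minus NC TNF for the 47 compared NF-kB target loci, in order and coloured by role, 1 library a side. Bars below the lower dotted line are the 11 loci at least 1.5-fold lower, from CCL20 at -1.14, and none passes the upper line, with BIRC3 highest at 0.47.

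Immediate early genes, which TNF also induces, were split in the same pair. The 27 compared had a median of -0.11, with 2 at least 1.5-fold higher and 3 lower, against 3.15% and 3.11% of all loci. JUN, an AP-1 subunit, was at 12.8 FPKM in NC TNF and 20.8 in siUXT TNF (0.66), with 7.49 in siEZH1 TNF, so that siUXT TNF was the highest of the 3. JUNB, its relative, went the other way at 186, 120 and 103 FPKM in NC TNF, siUXT TNF and siEZH1 TNF (-0.62). ZFP36, which promotes decay of cytokine mRNA, was at 55.1 and 33.6 FPKM (-0.70), and NR4A2, an orphan nuclear receptor, at 5.75 and 3.09 (-0.72). MYC was at 120 and 136 FPKM (0.17).

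Among the genes furthest below the control, some were lowest in siUXT TNF and others were highest in NC TNF. PPP2R5D, a regulatory subunit of the phosphatase PP2A, was at 32.2 FPKM in NC TNF and 15.6 in siUXT TNF (-1.0). The remaining values were 32.2, 32.2 and 30.5 FPKM in NC PBS, siEZH1 TNF and siEZH1 PBS and 22.3 in siUXT PBS, so both siUXT libraries were below 4 others that hardly differed. CHCHD6, a subunit of the complex that shapes mitochondrial cristae, was at 26.4 and 12 FPKM (-1.08), with 19.6 in siUXT PBS and 21 to 26.2 in the rest. LAGE3, a subunit of a tRNA-modifying complex, was at 15.7 and 7.36 FPKM (-1.0), with 8.25 in siUXT PBS and 9.32 in siEZH1 PBS, the next lowest. The SIVA1 locus, which encodes an apoptosis-associated protein, was at 119 and 49.9 FPKM (-1.24), with 57.3 in siUXT PBS and 56.3 in siEZH1 PBS. In these genes the siUXT TNF value was the lowest of the 6 libraries.

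In most of the other lower genes NC TNF held the highest value of the 6 libraries. With 1 library a side, a high NC TNF value and a low siUXT TNF value cannot be told apart. TUBA1C, an alpha-tubulin, was at 1539 FPKM in NC TNF and 741 in siUXT TNF (-1.05), while the 4 remaining libraries held 619 to 869. S100A3, a calcium-binding protein, was at 21.4 and 9.55 FPKM (-1.08), with 7.65 in siEZH1 TNF and at most 4.42 in the PBS libraries. CHAC1, an enzyme that degrades glutathione and a target of the stress factor ATF4, was at 13.0 and 4.30 FPKM (-1.40), against 7.51 in siEZH1 TNF and 2.38 to 3.72 in the PBS libraries. Both S100A3 and CHAC1 were higher with TNF than with PBS in the NC, siEZH1 and siUXT libraries alike. FAM195B was at 34.0 and 16.6 FPKM (-0.99), with 14.6 in siEZH1 TNF. ZDHHC12, a palmitoyltransferase, was at 38.9 and 19.8 FPKM (-0.94), with 15.2 in siEZH1 TNF. For ZDHHC12 the NC PBS value was high too, at 31.4 FPKM, against 24.1 in siUXT PBS and 15.1 in siEZH1 PBS. In these 5 genes siUXT TNF did not have the lowest value of the 6 libraries. SLC39A3, a zinc transporter, was at 28.1 and 12.9 FPKM (-1.07), the lowest of the 6, with 18.2 to 21.7 in the other libraries. ALKBH7, a mitochondrial dioxygenase family member, was at 15.1 and 7.32 FPKM (-0.95). Lowly expressed members were TMEM53 (6.77 and 2.32 FPKM), PHOSPHO1, a phosphatase of bone mineralization (3.67 and 1.24), BIRC7 (2.07 and 0.354) and the histone gene HIST1H2AM (2.45 and 0.356). RPSAP58 (4.44 and 0.905 FPKM) resembles the ribosomal gene RPSA and may share reads with it, so its value is uncertain.

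The genes furthest above the control were mostly of low level, and several were lowest in NC TNF. GEMIN6, a subunit of the SMN complex that assembles spliceosomal particles, was at 9.81 FPKM in NC TNF and 22.7 in siUXT TNF (1.13), but at 18.7 to 23.7 in the 4 other libraries. TMEM251 was at 10.7 and 22.9 FPKM (1.03), the lowest and the highest of the 6. SPTSSB, a small subunit of serine palmitoyltransferase, the first enzyme of sphingolipid synthesis, was at 6.35 and 15.4 FPKM (1.16), with 9.89 in siEZH1 TNF and 3.28 to 5.26 in the PBS libraries. C1GALT1, the enzyme that extends core 1 O-glycans, was at 3.02 and 9.71 FPKM (1.41), against 7.28 and 8.07 in the siEZH1 libraries and 2.48 in siUXT PBS. CTHRC1, a secreted collagen triple helix repeat protein, was at 3.96 and 10.2 FPKM (1.18), with 7.91 in siEZH1 TNF. In SPTSSB, C1GALT1 and CTHRC1 the siUXT TNF value was the highest of the 6 libraries.

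Of the more abundant genes, MCTS1, a translation factor, was at 17.6 FPKM in NC TNF and 36.7 in siUXT TNF (1.02), but at 7.64 in siUXT PBS against 24.2 in NC PBS. FAM3C, a secreted cytokine-like protein, was at 46.8 and 93.4 FPKM (0.98), and CCNH, the cyclin of the CDK-activating kinase, at 15.9 and 32 (0.96). Both were lower in siUXT PBS than in NC PBS, with log2 differences of -0.73 and -0.64. MARK3, a polarity kinase, was at 14.3 and 28.7 FPKM (0.95), DCAF6, a ubiquitin ligase receptor, at 11.3 and 22.3 (0.92) and C1orf112 at 12.9 and 26.0 (0.95). For MARK3, DCAF6 and C1orf112 NC TNF was the lowest of all libraries and siUXT TNF the highest. ZBTB8OS, an RNA ligase cofactor, was at 10.9 and 21.6 FPKM (0.93), but at 22.1 in siEZH1 PBS and 22.2 in siEZH1 TNF. STX3, a syntaxin of membrane fusion, was at 9.51 and 18.6 FPKM (0.90), with 25.6 in siUXT PBS and 11.8 to 13.7 in the other 3, so both siUXT libraries were above all others. HABP4 was at 7.43 and 14.6 FPKM (0.89) and at 14.5 in siUXT PBS, but siEZH1 PBS held 14.8. Among genes of low level were HNF4G, a nuclear receptor (0.420 and 2.30 FPKM), RAET1E, a ligand of the immune receptor NKG2D (1.02 and 4.08), AADAC, an esterase (0.227 and 2.21), PPP1R1C, a phosphatase inhibitor (0.919 and 4.62), ARL14EPL (1.34 and 5.68) and FAM212A (0.372 and 2.76). KRTAP3-1, PSORS1C1, LENEP and HIST2H2AC were listed at 0 in NC TNF and at 5.74, 2.99, 2.47 and 2.08 FPKM in siUXT TNF, so no fold is given for them.

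The same contrast without TNF used 2 other libraries, siUXT PBS and NC PBS, and shared few of these genes. Of the 263 genes at least 1.5-fold lower under TNF, 17 (6.46%) were also at least 1.5-fold lower under PBS, which is 0.992% of the 1714 genes lower there; over all 10006 genes that share was 17.1%. Of the 270 genes at least 1.5-fold higher under TNF, 24 (8.89%) were also at least 1.5-fold higher under PBS, or 6.49% of the 370 higher there, against 3.7% of all genes, and 57 (21.1%) were at least 1.5-fold lower under PBS. Most genes past 1.5-fold under TNF were therefore not past it in the same direction under PBS.

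Genes were also sought, after the values were seen, for which both siUXT libraries lay below, or both above, all 4 NC and siEZH1 libraries. There were 758 of the 10006 genes below (7.58%) and 1045 above (10.4%), many by small amounts, and because the choice uses the siUXT TNF and NC TNF values, it is a description and no check. Among genes whose mean reached 5 FPKM, the 12 widest gaps below included UXT and PPP2R5D. PIP4K2A, a lipid kinase of phosphoinositide metabolism, was at 18.4 FPKM in NC TNF and 11.7 in siUXT TNF, with 10.6 in siUXT PBS and 18.7 to 21 in the other 3. SLC25A13, the mitochondrial aspartate/glutamate carrier, was at 7.13 and 4.51 FPKM (-0.56), with 3.94 in siUXT PBS. TNRC6A, a core protein of microRNA silencing, was at 11.3 and 7.61 FPKM (-0.51), with 7.08 in siUXT PBS and 11.6 to 12.2 in the others. PERP, a desmosomal protein and p53 target, was at 46.4 and 31.0 FPKM (-0.56), DCK, the deoxycytidine salvage kinase, at 18.1 and 12.8 (-0.47), and TIA1, a stress granule protein, at 15.1 and 10.3 (-0.51). The others below were MIS18A, which loads the centromeric histone, NFAT5, the tonicity factor, RRP1B, a nucleolar protein, and PTPLB, a fatty acid elongation enzyme, with differences of -0.42 to -0.55.

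On the upper side stood TP53I3, a p53-induced oxidoreductase, at 12.5 FPKM in NC TNF and 20.4 in siUXT TNF (0.67), with 21.2 in siUXT PBS and 10.0 to 12.3 in the other 3. KLK7, a secreted serine protease, was at 14.5 and 22.6 FPKM (0.61), with 25.2 in siUXT PBS and 10.4 to 13.2 elsewhere. DGKA, a diacylglycerol kinase, was at 8.68 and 15.1 FPKM (0.73), and LEPRE1, a collagen prolyl hydroxylase, at 11.7 and 17.3 (0.53). ACADVL, an enzyme of mitochondrial fatty acid oxidation, was at 155 and 207 FPKM (0.42), with 244 in siUXT PBS, and S100A10, the partner of annexin A2, at 87.0 and 134 (0.61), with 114. EPHB2, SEMA3B, C17orf89 and PLTP were also among them, with differences of 0.38 to 0.53.

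**Figure D3:**
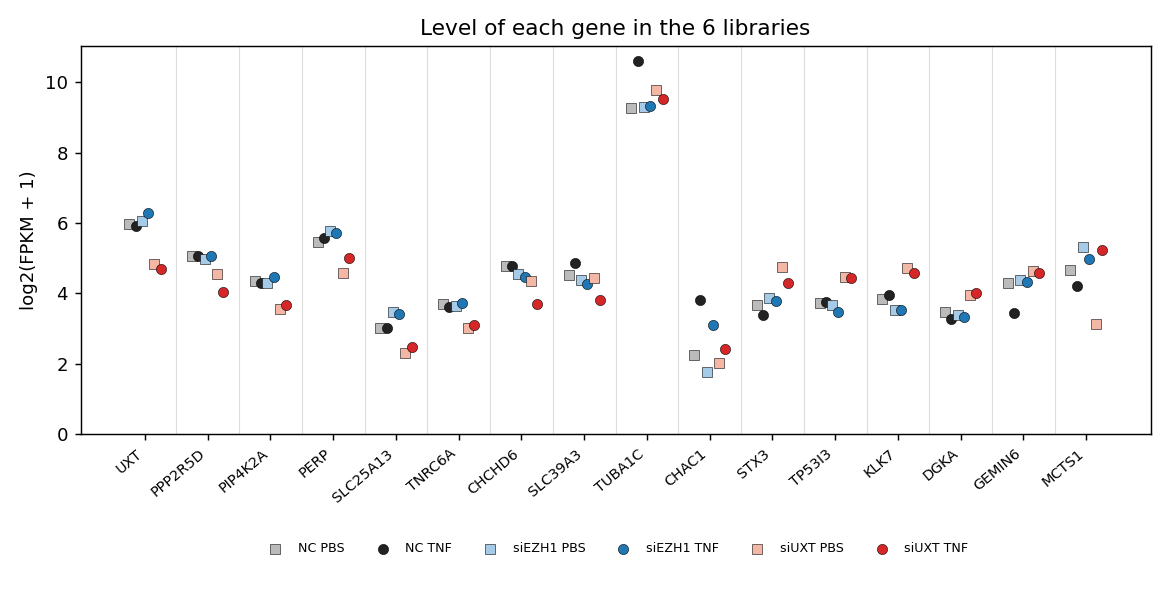
Points give log2(FPKM + 1) of 16 genes in each of the 6 libraries, circles for TNF and squares for PBS, with siUXT in red tones, siEZH1 in blue and NC in grey or black. For UXT, PPP2R5D, PIP4K2A and TP53I3 both red points stand apart from the 4 others, while for TUBA1C and GEMIN6 it is the black NC TNF point that does.

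Subunits of the constitutive proteasome, the protease that degrades ubiquitin-tagged proteins, were slightly higher as a list. Of 34 compared, 30 were higher and 4 lower, the median was 0.19 and none was 1.5-fold apart. For siUXT PBS minus NC PBS the median was 0.13, with 20 of the 34 higher. The base ATPase PSMC1 was at 78.0 FPKM in NC TNF and 117 in siUXT TNF (0.58), though siEZH1 PBS held 121. PSMC6 was at 29.0 and 41.7 FPKM (0.51), but at 13.9 in siUXT PBS against 35.5 in NC PBS. PSMB7, a catalytic subunit, was at 167 and 220 FPKM (0.39), with 219 in siUXT PBS and 163 to 180 in the other 3 libraries. PSMB5, the chymotrypsin-like subunit, was at 205 and 239 FPKM (0.23), with 235 in siUXT PBS. For 14 of the 34 (41.2%) both siUXT libraries were above all 4 others, a state that 10.6% of all 11790 loci shared, while 7.55% had both below. PSMB2 and PSMB3 had differences of -0.07 and -0.06.

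The list of unfolded protein response and ATF4 targets, whose members include chaperones of the endoplasmic reticulum, was split. Its 33 compared loci had a median of -0.01, with 16 higher and 17 lower. HSPA5, the chaperone BiP, was at 144 FPKM in NC TNF and 198 in siUXT TNF (0.46), with 175 in siUXT PBS and 136 to 154 in the other 3. CALR, calreticulin, was at 437 and 535 FPKM (0.29), with 639 in siUXT PBS, and CRELD2 at 28.3 and 36.2 (0.35), with 39.2. For 11 of the 33 loci (33.3%, against 10.6% of all loci) both siUXT libraries were above the 4 others, among them the ATF4 locus (0.10) and DDIT3 (0.33). For 4 (12.1%, against 7.55% of all loci) both were below. These were PSAT1, at 65.0 and 56.0 FPKM (-0.21), ASNS, at 46.1 and 45.0 (-0.04), SEL1L (-0.11) and SLC7A11 (-0.01). PSAT1 and ASNS are enzymes of serine and asparagine synthesis that ATF4 drives. CEBPB, a transcription factor of the acute phase, was at 32.2 and 18.3 FPKM (-0.79) and DNAJB9, a BiP cochaperone, at 3.60 and 6.29 (0.66).

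Most loci of the heat shock and chaperonin, PRC2 and mitotic lists were higher than in NC TNF. Over all loci 52% were higher and the median was 0.01. For siUXT PBS minus NC PBS these 3 lists had medians below 0. Of 27 heat shock and CCT chaperonin loci, 24 were higher, with a median of 0.27 under TNF and -0.14 under PBS. HSPD1, the mitochondrial chaperonin, was at 375 FPKM in NC TNF, 538 in siUXT TNF and 510 in siEZH1 TNF (0.52 for siUXT), and HSP90AA1 at 764, 1025 and 1134. The median of this list was 0.29 in siEZH1 TNF against the same NC TNF, and 0.01 between both knockdowns. PRC2 subunits were higher in 11 of 13 loci, with a median of 0.24 under TNF and -0.36 under PBS. EZH2, the main methyltransferase, was at 21.7 and 29.4 FPKM (0.42), MTF2, an accessory subunit, at 7.69 and 11.9 (0.57), SUZ12 at 13.4 and 14.7 (0.13), EED at 9.60 and 12.3 (0.32) and EZH1 at 5.12 and 6.23 (0.24). Mitotic genes were higher in 30 of 45 loci, with a median of 0.11 under TNF and -0.27 under PBS. Against the same NC TNF, siEZH1 TNF had medians of 0.31 for PRC2 and 0.28 for mitotic genes, and siUXT TNF minus siEZH1 TNF had -0.03 and -0.15. BIRC5 (survivin) was the mitotic gene at least 1.5-fold lower, at 89.3 and 59.1 FPKM (-0.59), with 64.7 in siEZH1 TNF.

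The remaining lists had medians between -0.08 and 0.12, with single members further out. The 31 compared p53 targets had a median of 0.12. Among them GDF15, a stress cytokine, was at 205 FPKM in NC TNF and 131 in siUXT TNF (-0.65), with 80.2 in siEZH1 TNF, while MDM2, the p53 inhibitor, was at 19.9 and 30.2 (0.58), the highest of the 6 libraries. Nuclear respiratory chain genes had a median of 0.06 over 76 loci. UQCR10, a subunit of complex III, was at 316 and 175 FPKM (-0.84), with 120 in siEZH1 TNF, and NDUFB3, of complex I, at 37.4 and 58.8 (0.64). Cytoplasmic ribosomal proteins had a median of 0.08 over 77 loci and mitochondrial ones 0.02 over 75, with MRPL36 at 82.3 and 44.5 FPKM (-0.87) and MRPL1 at 15.0 and 25.4 (0.72). The 32 apoptosis regulators had a median of -0.05. The tight junction gene CLDN3 was at 11.9 and 6.70 FPKM (-0.75), the CLDN4 locus at 164 and 96.4 (-0.76), and CLDN2 at 1.91 and 4.08 (0.80), and the 27 epithelial and junction loci had a median of -0.08. DNA replication, sterol synthesis, glycolysis, interferon-stimulated, Wnt target, splicing factor, RNA polymerase II, histone and snoRNA host lists had medians between -0.08 and 0.09. Both siUXT libraries were below all 4 others for 8 of 32 SR protein and hnRNP loci (25%) and above them for 1. Over all loci, 7.55% had both below and 10.6% both above. The SR protein and hnRNP list had a median of 0.06 under TNF, with 19 of 32 higher, and of -0.29 under PBS. Both were above for 7 of 35 glycolysis and hypoxia loci (20%) and 13 of 76 respiratory chain loci (17.1%), and below for 1 in each list.

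**Figure D4:**
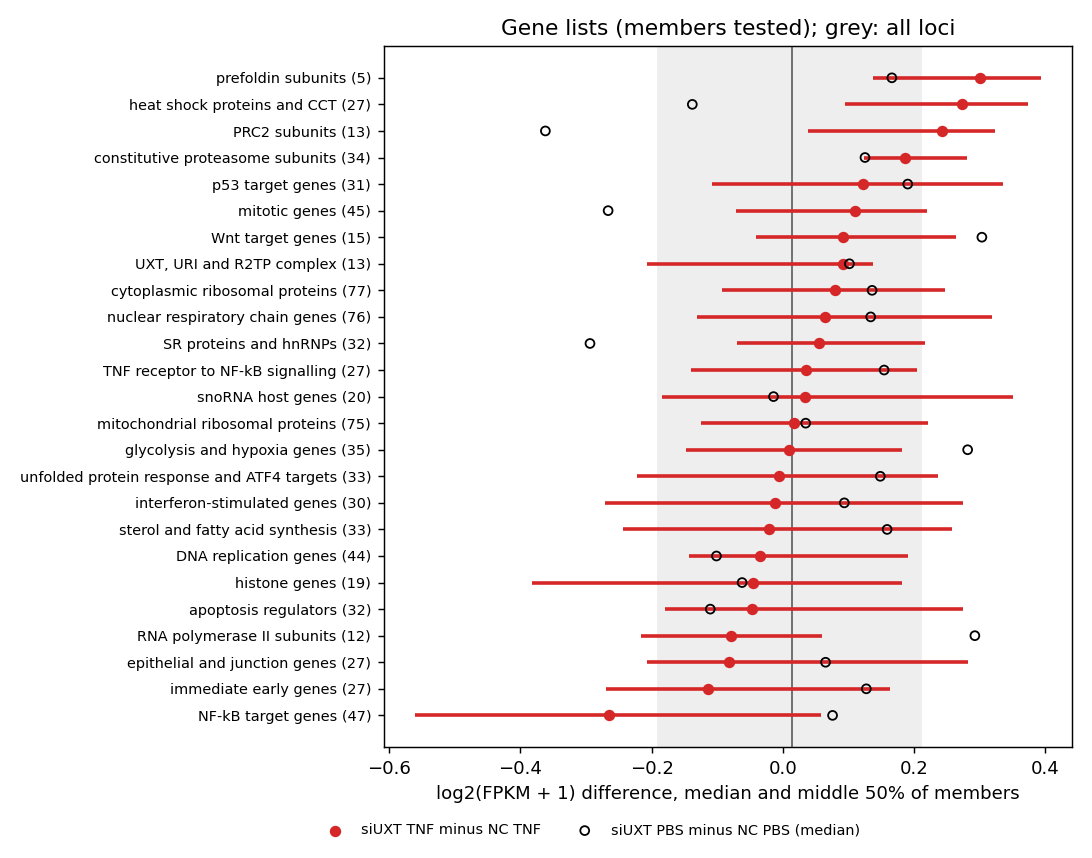
Red points and lines give the median and middle 50% of log2(FPKM + 1) differences, siUXT TNF minus NC TNF, for each list with its number of loci compared; open circles give the median for siUXT PBS minus NC PBS, and the grey band the middle 50% of all loci. NF-kB targets have the lowest median (-0.27), and prefoldin (0.30) and chaperones (0.27) the highest, and the chaperone, PRC2 and mitotic circles lie below 0.

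The differences varied with gene span, the genomic length from start to end of a gene. The 861 genes spanning under 5000 bases had a median of -0.14 and 9.18% of them were at least 1.5-fold lower, against a median of 0.08 and 0.92% for the 1740 genes of 100000 bases or more. The genes at least 1.5-fold lower had a median span of 9809 bases, those at least 1.5-fold higher 31886 and all genes 30593. The Spearman correlation with span across the 10006 genes was 0.19 for siUXT TNF minus NC TNF, -0.23 for siUXT PBS minus NC PBS, 0.29 for siEZH1 TNF minus NC TNF and -0.22 for NC TNF minus NC PBS, where the 3 contrasts with NC TNF share that library. Promoter GC content had a correlation of -0.15 over 8227 genes. By chromosome, the lowest median was that of chromosome 19 (-0.15 over 712 genes) and the highest that of chromosome 13 (0.14 over 163 genes), and their medians under PBS were 0.24 and -0.37. The part of span, depth or of the NC TNF library in the list medians and single genes above was not tested.

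**Figure D5:**
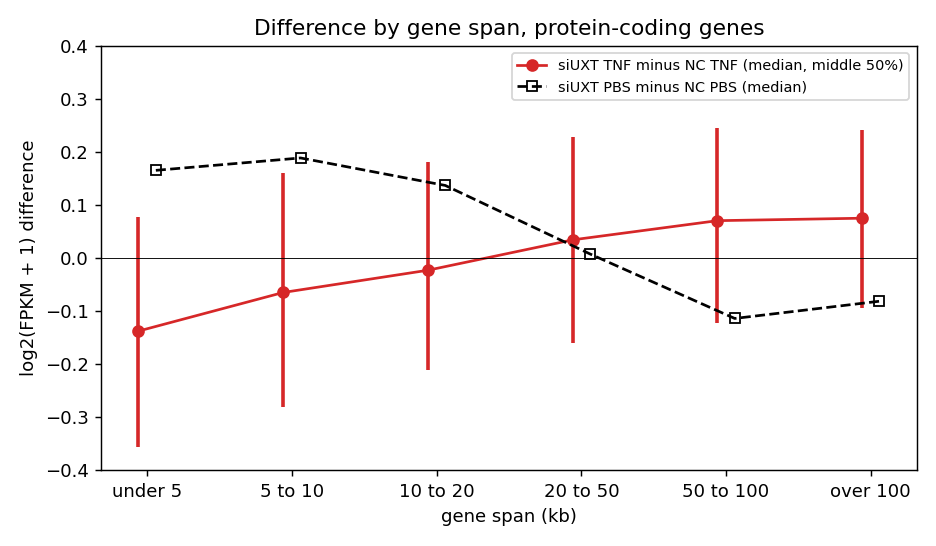
Red points and lines give the median and middle 50% of log2(FPKM + 1) differences, siUXT TNF minus NC TNF, in 6 ranges of gene span in kilobases, and open squares the median for siUXT PBS minus NC PBS. The TNF medians run from -0.14 in the shortest genes to 0.08 in the longest, and the PBS medians go the other way.

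Small RNAs made up many of the largest ratios. Of 57 loci classed as small RNA in the comparison, 31 were at least 2-fold apart, 15 higher and 16 lower. Of the 57, 13 were listed at 0 in NC TNF and 14 in siUXT TNF. The class goes by symbol or gene type and also holds host transcripts such as GAS5 and MIR210HG, both within 2-fold. SNORD12B, for instance, was listed at 1222 FPKM in NC TNF and at 0 in the 5 other libraries. No fold is read from such values. Among snoRNA host loci, the locus of TAF1D and its intronic small RNAs was at 25.2 FPKM in NC TNF and 67.4 in siUXT TNF. Without TNF it went the other way, at 45.3 FPKM in NC PBS and 9.40 in siUXT PBS. The SNHG12 locus was at 49.4 and 82.2 FPKM in NC TNF and siUXT TNF, and at 48.9 and 39.8 in NC PBS and siUXT PBS. For both loci the host transcript and the small RNAs cannot be separated in these values.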

How the data were processed

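RNA was measured in 6 poly(A)-selected libraries of HCT116 cells, 1 library per condition, and the siUXT TNF and NC TNF libraries were compared. The authors deposited 1 FPKM table per library. Per the submitters' processing notes, the build was hg19 and FastQC, cutadapt, TopHat2, Bowtie and SICER were used, while no label names the program or annotation behind FPKM. Counts were not used, and relative depth was read from the steps of values below 0.4 FPKM. Of 28502 symbols, those with identical values in the 6 libraries were merged, loci whose mean over both libraries reached 1 FPKM were kept, and differences were taken on log2(FPKM + 1) with Python 3.11.15, numpy 2.4.6 and pandas 2.3.3. The code was tested on simulated data. No test was made between siUXT TNF and NC TNF, which are 1 library each, and a fit over both treatments was not run. Of the symbols, 22888 matched the RefSeq table (GRCh38.p14), which gave gene type, span and promoter sequence.

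Named genes were UXT, the 12 highest and 12 lowest protein-coding genes with means of at least 1 and at least 10 FPKM, extreme and most abundant members of each list, all UXT complex and prefoldin members, and a fixed set of NF-kB and PRC2 genes. The further NF-kB targets, PSMB7, PSMB5, CRELD2, ASNS, PSAT1 and the genes with both siUXT libraries outside the 4 others were chosen after their values were seen. The comparison and the 27 lists were chosen with earlier results of these data known. Alternatives changed the pseudocount, the filter, the scaling and the merging. Some genes that the rules select are not reported here.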

Additional observations from a re-analysis of the deposited data

Results flagged for a closer look

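For 5 genes named for the most extreme differences, siUXT lay at least 1.5-fold above control under TNF and at least 1.5-fold below it under PBS. The same held for 57 of all 270 genes at least 1.5-fold higher under TNF (21.1%). Over all 10006 genes, 17.1% were at least 1.5-fold lower under PBS. The difference between the treatments was not tested, since each value rests on 1 library a side. C1GALT1 had log2 differences of 1.41 under TNF and -0.83 under PBS. MCTS1 had 1.02 under TNF and -1.55 under PBS. FAM3C had 0.98 under TNF and -0.73 under PBS. For CCNH the differences were 0.96 under TNF and -0.64 under PBS, and for ZBTB8OS 0.93 under TNF and -0.63 under PBS. The siUXT PBS library, where 6.65% of genes stood 2-fold or more below NC PBS, enters each of the PBS values.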

How the results depend on the processing

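Counts of loci at least 2-fold apart depended on the pseudocount and the filter, while list medians mostly did not. All loci numbered 58 higher and 45 lower, and those with a protein-coding symbol 33 and 18. With a pseudocount of 0.1 these counts were 139, 111, 85 and 65, with a pseudocount of 5 they were 17, 21, 3 and 5, and with a mean of at least 5 FPKM 22, 29, 11 and 11. Without a filter, under either scaling and without merging, the counts stayed within 1.5 times. Of 27 list medians, 2 moved by more than 0.1, both with a mean of at least 5 FPKM: interferon-stimulated genes to -0.17 and Wnt target genes to 0.21. Of 218 named loci, 18 moved by more than the spread of all loci with a pseudocount of 0.1 and 26 with a pseudocount of 5, and 0 under either scaling. The 1.33-fold greater relative depth of siUXT TNF limits what can be read from low values in NC TNF. No paired analysis was possible because the labels give no replicate numbers and siUXT TNF and NC TNF are 1 library each; a fit of the siUXT difference over both treatments was not run.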
